A study of Mus musculus with 4 samples.

Results

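Neuroectoderm is the part of the early embryo that gives rise to the brain, spinal cord and neural crest, and 9 genes commonly used as its markers are described here. They were taken by symbol from the deposited table: Gbx2, Sox1, Ncam1, Pax6, Nes, Sox11, Tubb3, Zic1 and Fabp7, each on 1 row of a table of 46603 gene IDs, of which 30237 have a count. Polyadenylated RNA was sequenced from mouse embryonic stem cells in 4 samples, 2 of them wild type (Gsk3a+/+;Gsk3b+/+) and 2 Gsk3a-/-;Gsk3b-/-, lacking both genes of glycogen synthase kinase 3. All were grown with serum and LIF, the cytokine that keeps such cells undifferentiated, on a layer of irradiated embryonic fibroblasts, so RNA of the feeder cells can be present in every library. The series calls the replicates biological, and the labels name no clone, passage or allele structure.

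The table compares a group A with a group B, and no header or label ties a genotype to either. Values are therefore given for B over A, with no genotype assigned. Libraries A1 and A2 make up group A and B1 and B2 group B; their numbers are unrelated to the labels' replicates. Values per library are normalized counts, that is, reads divided by the library's size factor, recovered from the group means. Total counts were 112655210 to 146326307 per library. Gsk3a, a targeted gene, had normalized counts of 6353 and 7104 in group A and 1697 and 1347 in group B, and Gsk3b had 5438, 6285, 5051 and 5002 in A1, A2, B1 and B2. Stem cell markers fixed as a list were present in every library, with summed normalized counts of 873785, 942248, 812803 and 826285 over 10 genes in A1, A2, B1 and B2. Of these, Utf1, a chromatin-associated factor of undifferentiated cells, was called lower in the authors' deposited table (log2 ratio -1.0, adjusted p = 0.000237). It was the 1 call among the 10, with 3 lower and 0 higher at an unadjusted p below 0.05, and limma also called 1 lower, with 6 lower and 0 higher at an unadjusted p below 0.05. The libraries of group B lay below those of group A for 6 of the 10 and above for 0. Over all genes tested, 22.7% were so placed below and 21.8% above. The list's median log2 fold change was -0.29. Every one of the 2601 gene IDs on chromosome X is listed at 0, genes that all cells use included, so X-linked neural genes such as Sox3 and Dcx have no usable value here.

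Neural tissue forms from the epiblast when BMP and Nodal signals are blocked, and high Wnt/beta-catenin signalling turns epiblast cells toward mesoderm or, within neural tissue, toward posterior identity. Glycogen synthase kinase 3 marks beta-catenin for degradation. The 9 genes cover successive steps: Gbx2 is a homeobox gene of the posterior neural plate that naive stem cells also express. Sox1 is the earliest marker specific to the neural plate. Zic1 and Pax6 are transcription factors of the patterned neural plate and tube, Nes and Fabp7 mark neural progenitors and radial glia, and Sox11, Ncam1 and Tubb3 mark neurons and their precursors.

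Gbx2, Sox1 and Ncam1 were lower in group B by 2.48-, 2.41- and 2.28-fold, and the other 6 genes did not pass the test. By the authors' deposited table, 3 of the 9 genes were lower and 0 higher at an adjusted p of 0.05, against a background of 1.92% of all 30237 genes tested called lower and 1.54% called higher (3.46% in either direction). The same 3 genes, and no other member, had an unadjusted p below 0.05 in that table. Many of the genes tested had few reads, while 8 of the 9 members had a mean of at least 10. With the authors' p-values adjusted over the 20465 genes at that level, 1189 genes and the same 3 members were called. Both B libraries lay below both A libraries for 3 of the 9 genes and above them for 1, while 22.7% and 21.8% of all genes tested were so placed. The authors' deposited table puts the median log2 fold change of the 9 genes at -0.42, and it was 0.0054 over the 26732 genes with a finite value. With limma on the recovered counts, which estimates the spread from the libraries, only Gbx2 passed (1 of 8 genes in that test, in the lower direction, against 1.03% of 20465 genes called lower and 2.01% in either direction), and 3 members had an unadjusted p below 0.05.

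**Figure D1:**
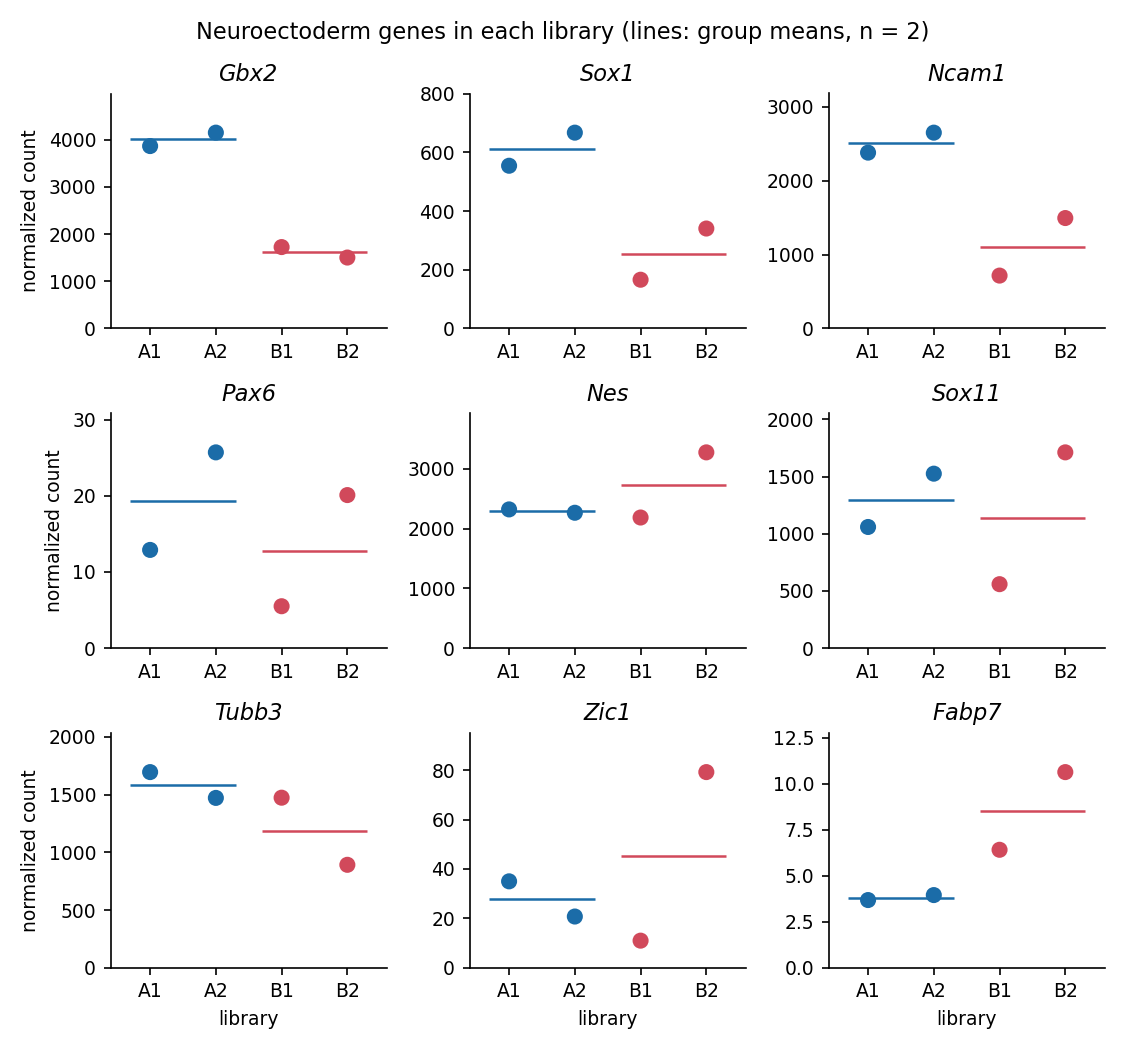
Normalized counts of the 9 neuroectoderm genes in each of the 4 libraries, 1 panel per gene with its own vertical axis from 0. Points are libraries (blue, group A; red, group B) and lines are group means of 2 libraries; Gbx2, Sox1 and Ncam1 have both B points below both A points.

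The homeobox gene Gbx2 (ENSMUSG00000034486, chromosome 1, 89927956 to 89931179, minus strand, mm10) had the clearest difference. Its normalized counts were 3864 (A1) and 4149 (A2) against 1724 (B1) and 1502 (B2). Libraries of a group were close to each other, and the lowest A library was 2.24 times the highest B library. Group means were 4007 ± 201 in A and 1613 ± 157 in B (SD, n = 2 each). The authors' deposited table gives a log2 fold change of -1.31 (adjusted p = 7.26e-09), and limma gave -1.32 (SE 0.14, 95% interval -1.65 to -0.98, adjusted p = 0.0281). Without A1 or without A2 limma called no gene of the whole table, and Gbx2 was at -1.37 and -1.26 (adjusted p = 0.18 and 0.312). Without B1 or B2 it passed, at -1.41 (adjusted p = 0.0134) and -1.22 (adjusted p = 0.0113). A transcript on the opposite strand, D130058E05Rik, shares 946 exonic bases with Gbx2, and whether reads were counted by strand is not given. Its normalized counts were 469, 610, 320 and 338 in A1, A2, B1 and B2, so it was the smaller of the pair in every library (-0.71 on the log2 scale in the authors' deposited table, adjusted p = 0.092).

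The promoter of Gbx2 is shown beside those of Nes and Sox11, which did not pass the test, because TCF/LEF factors, the nuclear partners of beta-catenin, bind sites with the core CTTTG. Each is the 250 bases before the RefSeq start of the gene, on the gene's strand, 5′ to 3′, from RefSeq on GRCm38.p6 (Gbx2 chr1:89931177-89931426 minus, Nes chr3:87970843-87971092 plus, Sox11 chr12:27342719-27342968 minus). Capitals mark CTTTG on either strand and, as the core of SOX sites, ACAAT on either strand. SOX proteins also bind sequences that contain CTTTG, so the first core does not belong to TCF/LEF factors alone.
Gbx2: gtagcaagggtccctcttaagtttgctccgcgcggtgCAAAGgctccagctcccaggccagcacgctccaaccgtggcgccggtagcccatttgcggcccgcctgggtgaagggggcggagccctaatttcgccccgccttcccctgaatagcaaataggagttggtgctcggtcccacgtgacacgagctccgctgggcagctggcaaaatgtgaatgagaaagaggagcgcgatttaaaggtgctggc
Nes: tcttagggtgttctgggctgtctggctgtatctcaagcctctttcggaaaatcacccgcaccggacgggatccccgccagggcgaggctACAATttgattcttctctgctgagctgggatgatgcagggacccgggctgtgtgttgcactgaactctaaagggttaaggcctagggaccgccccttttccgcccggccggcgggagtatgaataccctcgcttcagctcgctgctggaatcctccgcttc
Sox11: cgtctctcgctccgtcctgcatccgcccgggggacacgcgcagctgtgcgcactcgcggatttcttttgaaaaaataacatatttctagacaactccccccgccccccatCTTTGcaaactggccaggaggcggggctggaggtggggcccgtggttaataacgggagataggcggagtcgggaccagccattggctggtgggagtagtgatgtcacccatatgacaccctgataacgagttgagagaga

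Gbx2 held the CTTTG core on the reverse strand, 213 bases before its start. Sox11 held it on the gene's strand, 140 bases before its start, and Nes held the SOX core 161 bases before its start. Among 32851 windows of the same length in the RefSeq table, 48.6% held the TCF/LEF core and 27.7% the SOX core on either strand. Of 9 windows for the 8 members in that table, 4 held the TCF/LEF core and 5 the SOX core. The called gene Sox1 held the TCF/LEF core once, 198 bases before its RefSeq start, in a window of which 224 bases lie inside the Sox1 gene of GENCODE M21. Ncam1 has no window in that table. The TCF/LEF core was in windows of Gbx2 and Sox1, which were called, and of Pax6 and Sox11, which were not. All 250 bases of that Pax6 window lie inside the Pax6 gene of GENCODE M21. The SOX core was in windows of Pax6, Nes, Tubb3, Zic1 and Fabp7. With so few called genes and a core in 48.6% of all windows, these matches cannot set called genes apart. Whether either core has a part in the expression values was not tested.

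Sox1 (ENSMUSG00000096014, chromosome 8, 12395295 to 12400126, plus strand), a SOXB1 transcription factor, had normalized counts of 555 (A1) and 667 (A2) against 166 (B1) and 340 (B2). Both B libraries were below both A libraries, with B1 the lowest, and the lowest A library was 1.63 times the highest B library. The authors' deposited table gives it means of 611 and 253, a log2 fold change of -1.27 and an adjusted p of 0.00906. With limma the change was -1.35 (SE 0.37, 95% interval -2.25 to -0.45), and the call was lost (adjusted p = 0.122). Without B1 the limma value was -0.84 (adjusted p = 0.104), and without B2 it was -1.87 (adjusted p = 0.0148). Sox1ot, the non-coding transcript that spans Sox1 on the same strand and shares 0 exonic bases with it, had 27.6, 29.7, 8.25 and 5.91 normalized counts in A1, A2, B1 and B2. Both B libraries were the lower ones for Sox1ot too, but it did not pass (-2.02 on the log2 scale in the authors' deposited table, adjusted p = 0.386).

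Ncam1 (ENSMUSG00000039542, chromosome 9, 49502136 to 49798925, minus strand), a cell adhesion molecule of neurons that other cells also carry, had normalized counts of 2380 (A1) and 2651 (A2) against 715 (B1) and 1494 (B2). As for Sox1, B1 was the lowest and B2 stood between B1 and the A libraries, the lowest A library being 1.59 times the highest B library. In the authors' deposited table its means were 2516 and 1105, the log2 ratio -1.19 and the adjusted p 0.00932. Limma gave -1.28 (SE 0.34, 95% interval -2.12 to -0.44) and did not call it (adjusted p = 0.119). Without B1 the value was -0.75 (adjusted p = 0.0578), and without B2 it was -1.81 (adjusted p = 0.00616). Sox1 and Ncam1 stayed below 0 with each of the 4 libraries left out.

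**Figure D2:**
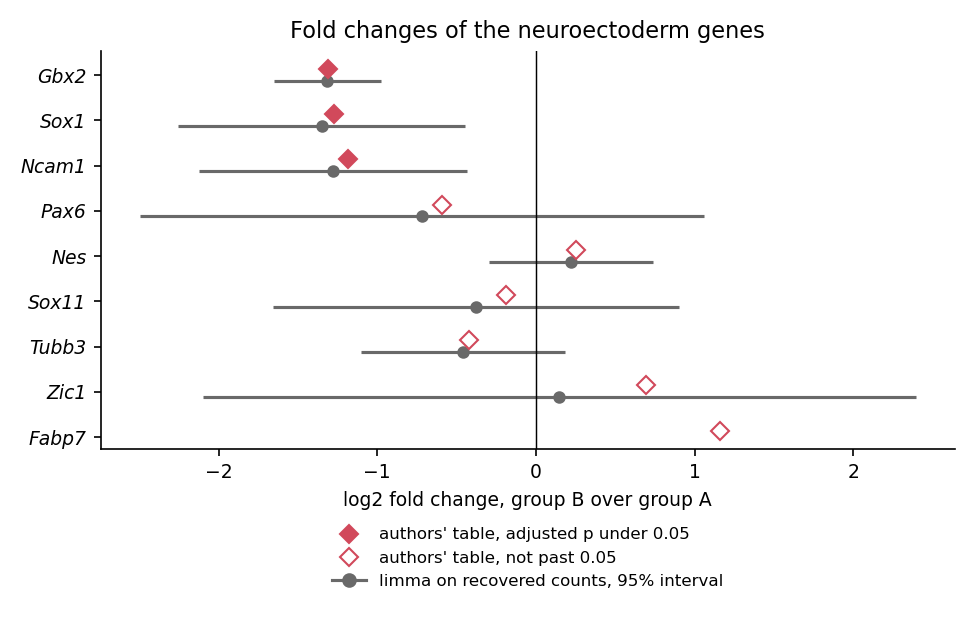
Log2 fold change of group B over group A for each of the 9 genes. Diamonds are the authors' deposited values, filled where the adjusted p was under 0.05 (Gbx2, Sox1, Ncam1). Circles with bars are limma estimates with 95% intervals. Fabp7 had a mean under 10 and was not in the limma fit shown. Only the intervals of Gbx2, Sox1 and Ncam1 exclude 0.

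Genes whose profile over the 4 libraries was most like that of the called members were found by the Euclidean distance of centred log2(normalized count + 1), among 13012 genes with a mean normalized count of 50 or more. This is a description over 4 libraries. Ncam1 was the gene nearest to Sox1 and Sox1 the gene nearest to Ncam1, at a distance of 0.11 log2 units. Next came Mybpc2 (0.17) and Dock10 (0.19) for Sox1, and Plch2 (0.14) and Dock10 (0.17) for Ncam1. Dock10 had 314, 370, 108 and 195 normalized counts in A1, A2, B1 and B2 and differed by -1.17 on the log2 scale in the authors' deposited table (adjusted p = 0.00459). Nearest to Gbx2 were Mslnl (0.086), the phospholipase Pla2g1b (0.12) and Mctp2 (0.13). Pla2g1b, of a similar count level, had 4356 and 4625 in group A and 2029 and 1567 in group B (-1.32, adjusted p = 6.20e-09, authors' deposited table). Gbx2 itself lay farther from Sox1 (0.88) and from Ncam1 (0.89), since B2 was above B1 for those genes and below it for Gbx2.

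The transcription factors Pax6 and Zic1 had few reads. Pax6 (ENSMUSG00000027168, chromosome 2, 105668900 to 105697364), which specifies forebrain and eye progenitors, had 14, 26, 6 and 17 reads in A1, A2, B1 and B2, or 12.9, 25.7, 5.50 and 20.1 normalized counts. The groups overlapped. Its log2 fold change was -0.59 (adjusted p = 1, authors' deposited table), with a limma 95% interval of -2.50 to 1.06. The exact Poisson 95% interval of the 6 reads in B1 was 2.20 to 13.1 and that of the 26 reads in A2 was 17.0 to 38.1, covering counting error only.

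Zic1 (ENSMUSG00000032368, chromosome 9, 91358058 to 91365810), a zinc finger factor of the dorsal neural tube and of several mesenchymal tissues, had 38, 21, 12 and 67 reads, or 35.0, 20.8, 11.0 and 79.2 normalized counts in A1, A2, B1 and B2. The B libraries were the highest and the lowest of the 4, with exact Poisson 95% intervals of 51.9 to 85.1 reads in B2 and 6.20 to 20.96 in B1. The authors' deposited table gives a log2 fold change of 0.69 (adjusted p = 1), and limma 0.15 (95% interval -2.10 to 2.40). The sign turned with 1 library: limma gave -1.22 without B2 and 1.52 without B1. Zic4, which overlaps Zic1 on the opposite strand with 60 shared exonic bases, showed the same order of libraries at 11.1, 3.96, 0.917 and 13.0 normalized counts. These values rest on only 12, 4, 1 and 11 reads, and B2 exceeded A1 only after scaling by size factor.

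The progenitor markers differed in level, and neither passed. Nes (ENSMUSG00000004891, chromosome 3, 87971078 to 87980451), the intermediate filament nestin, had 2322, 2266, 2187 and 3277 normalized counts in A1, A2, B1 and B2. A1, A2 and B1 were nearly equal and B2 stood above them. Its log2 fold change was 0.25 (adjusted p = 1, authors' deposited table), the limma 95% interval was -0.29 to 0.74, and without B2 the limma value was -0.07. Fabp7 (ENSMUSG00000019874, chromosome 10, 57784881 to 57788450), the brain fatty acid binding protein of radial glia, had 4, 4, 7 and 9 reads. B1 and B2 were each above A1 and A2. The exact Poisson 95% intervals, which cover counting error only, overlapped (1.09 to 10.2 for 4 reads and 4.12 to 17.1 for 9). Its log2 fold change of 1.16 did not pass (adjusted p = 1, authors' deposited table). Limma with no filter on low counts gave 0.95 (SE 0.58, 95% interval -0.44 to 2.34, adjusted p = 0.494).

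The neuronal markers Sox11 and Tubb3 likewise had overlapping groups. Sox11 (ENSMUSG00000063632, chromosome 12, 27334264 to 27342574), a SOXC factor of newly formed neurons that mesenchyme also expresses, had 1059, 1526, 559 and 1712 normalized counts in A1, A2, B1 and B2. The highest and the lowest value were both in group B. Its log2 fold change was -0.19 (adjusted p = 1, authors' deposited table), with a limma 95% interval of -1.66 to 0.90, and limma gave -1.18 without B2 and 0.43 without B1. Tubb3 (ENSMUSG00000062380, chromosome 8, 123411424 to 123422015), the neuronal beta-tubulin, had 1696, 1472, 1474 and 893 normalized counts, so A2 and B1 were nearly equal and B2 was the lowest. Its log2 fold change was -0.42 (adjusted p = 0.995, authors' deposited table) with a limma 95% interval of -1.10 to 0.18. Tubb3 shares long stretches with other beta-tubulin genes, some of which, such as Tubb5 and Tubb4b, had far more reads, so its count is uncertain where reads could be split.

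Levels can be compared between genes per length of merged exons (GENCODE M21). Mean normalized counts per kilobase in group A were 1840 for Gbx2, 848 for Tubb3, 358 for Nes, 290 for Ncam1, 156 for Sox11, 126 for Sox1, 4.90 for Zic1, 3.06 for Fabp7 and 1.65 for Pax6. In group A the libraries of neighbours in this order overlapped only for Sox11 (127 and 184) and Sox1 (115 and 138). In group B the order began with Gbx2 (741), Tubb3 (634) and Nes (426), followed by Sox11 (137), Ncam1 (128), Sox1 (52.4), Zic1 (7.92), Fabp7 (6.82) and Pax6 (1.10). There the B libraries of Gbx2 (792 and 690) and Tubb3 (789 and 478) overlapped, as did those of Tubb3 and Nes, of Sox11 and Ncam1, and of Zic1 and Fabp7. Gbx2 thus had the highest level of the 9 in group A, while in group B its level overlapped with that of Tubb3. Merged exons of all transcripts overstate the length of genes with many short isoforms, such as Pax6.

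Markers of other cells differed between the libraries of a group, as did several members, though not always in the same direction. All 20 feeder fibroblast markers fixed as a list were higher in A1 than in A2 and higher in B2 than in B1, and none was listed at 0. Fn1 (fibronectin) and Thbs1 (thrombospondin) had the highest means, with 126836, 120355, 89803 and 202094 normalized counts for Fn1 and 40435, 14882, 10180 and 60369 for Thbs1 in A1, A2, B1 and B2. The summed normalized counts of the 20 were 328808 (A1), 214614 (A2), 144124 (B1) and 495748 (B2). The authors' test called 0 of the 20 in either direction, with 0 at an unadjusted p below 0.05, and limma likewise called 0. Of the 9 neuroectoderm genes 7 were higher in B2 than in B1, by 1.499-fold for Nes, 1.66-fold for Fabp7, 2.05-fold for Sox1, 2.09-fold for Ncam1, 3.06-fold for Sox11, 3.65-fold for Pax6 and 7.20-fold for Zic1. The median ratio of the feeder markers was 5.13. The share of all genes higher in B2 than in B1 was not computed. Among genes with a count in the lists described below, B2 exceeded B1 for 14 of 26 neural plate and progenitor factors. It did so for 13 of 18 proneural and neuronal genes, 8 of 9 neural inducers and BMP antagonists, and 11 of 20 paralogs. Gbx2 and Tubb3 were lower in B2 than in B1, by ratios of 0.871 and 0.606. Between A1 and A2 only Zic1 (1.69), Tubb3 (1.152) and Nes (1.02) were higher in A1, against a median ratio of 2.12 for the feeder markers.

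Zic1 and Nes followed the order of the summed feeder markers over all 4 libraries (B2, A1, A2, B1), and no other member did. Of the single feeder markers, Col3a1, Lum, Dcn and Twist1 departed from it, being higher in A1 than in B2. Sox1, Ncam1, Pax6 and Sox11 were higher in A2 than in A1, where the feeder markers were lower. The part of feeder cells in these values was not tested. In such bulk samples, fewer cells of a type and less RNA per cell cannot be told apart. Endoderm markers went the other way within group B: 13 of 14 were higher in B1 than in B2, with summed normalized counts of 90769, 73712, 346560 and 171064 in A1, A2, B1 and B2. B1 and B2 each exceeded A1 and A2 for 21.8% of all genes tested and for 10 of these 14 markers. The authors' test called 1 of them higher and 0 lower, with 9 higher and 1 lower at an unadjusted p below 0.05, and limma called 4 higher. The gene called by the authors was Foxa1, a pioneer factor of endoderm, with 23.0 and 30.7 normalized counts in group A and 270.5 and 144 in group B (2.95, adjusted p = 0.0192, authors' deposited table). Afp had 0 reads in A2 and in B2. B1 was the library with the lowest values of Sox1, Ncam1, Pax6, Nes, Sox11 and Zic1. The part of endoderm-like cells in these values was not tested either. Gbx2 differed from group A by a similar amount in B1 and in B2. Stem cell markers, with a median log2 fold change of -0.29, lay on the same side of 0 as Gbx2, and the part of stem cell content in its value was not tested.

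**Figure D3:**
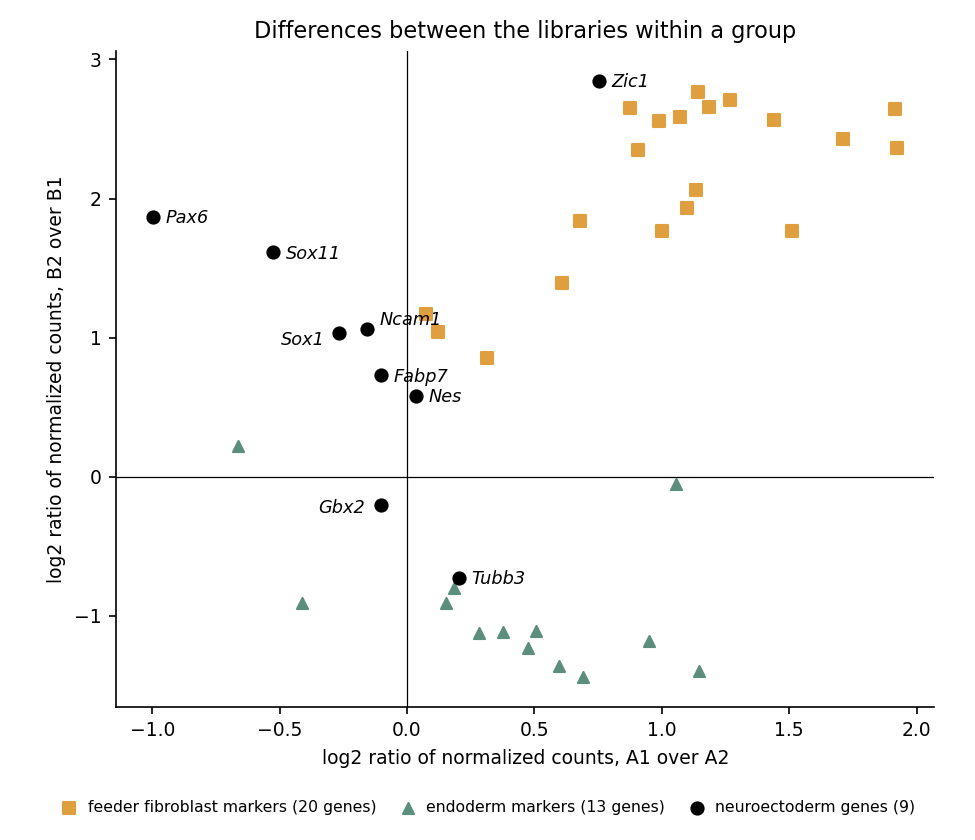
Log2 ratio of B2 over B1 (vertical) against log2 ratio of A1 over A2 (horizontal) for the 9 neuroectoderm genes (black), 20 feeder fibroblast markers (squares) and the 13 endoderm markers with a count in every library (triangles). All feeder markers lie above 0 on both axes; of the neuroectoderm genes only Zic1 and Nes do, and Gbx2 and Tubb3 lie below 0 on the vertical axis.

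Other neural genes, from lists that share 6 genes among them, were mostly not past the threshold. Of 27 transcription factors of the neural plate and its progenitors 26 had a count, and 1 was lower and 0 higher in the authors' test, with 2 lower and 2 higher at an unadjusted p below 0.05. Limma called 0, with 2 lower and 3 higher at an unadjusted p below 0.05. The gene called was Otx2, the homeobox gene of the anterior neural plate and of primed epiblast, whose border with Gbx2 in the embryo sets the boundary of midbrain and hindbrain. It had 1011 and 1215 normalized counts in group A and 481 and 631 in group B (-1.0 on the log2 scale with an adjusted p of 0.000389 in the authors' deposited table, and -1.01 with an adjusted p of 0.0736 in limma). The list's median log2 fold change was 0.30, on the other side of 0 from that of the 9 members.

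Of 21 proneural and neuronal genes 18 had a count. The authors' test called 1 lower and 0 higher, with 3 lower and 2 higher at an unadjusted p below 0.05. Gap43, a protein of growing axons, had 1229 and 1606 normalized counts in group A and 260 and 369 in group B (-2.17, adjusted p = 6.50e-08, authors' deposited table; limma -2.18, adjusted p = 0.0309). Of the 13 genes in its test limma called 2 lower and 0 higher, with 3 lower and 4 higher at an unadjusted p below 0.05. The second gene it called was the proneural factor Neurod1, with 321, 693, 69.7 and 75.7 normalized counts in A1, A2, B1 and B2 (limma -2.68, adjusted p = 0.0416, and -2.80, adjusted p = 0.13 in the authors' deposited table). It is named after its values were seen. The median log2 fold change of this list was -0.25.

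Of 10 neural inducers and BMP antagonists 9 had a count, and 0 passed in the authors' test or in limma, with 2 lower and 0 higher at an unadjusted p below 0.05 in each. Those with the highest means were Gmnn, which keeps cells competent for a neural fate (-0.20), and the activin antagonist Fst (-0.27), both with an adjusted p of 1 in the authors' deposited table. The 2 genes with a low unadjusted p, named after their values were seen, were the BMP antagonists Nog (235, 167, 59.6 and 105 in A1, A2, B1 and B2, adjusted p = 0.0518) and Chrd (426, 508, 235 and 318, adjusted p = 0.0652, authors' deposited table). Both had both B libraries below both A libraries.

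Paralogs of the 9 genes, proteins of the same families, held calls in both directions. Of 22 paralogs 20 had a count, and the authors' test called 2 higher and 1 lower, with 2 higher and 5 lower at an unadjusted p below 0.05. Limma called 2 higher and 0 lower, with 2 higher and 6 lower at an unadjusted p below 0.05. Their median log2 fold change, -0.16, was on the same side of 0 as that of the 9 members. The fatty acid binding proteins Fabp3 and Fabp5 rose, Fabp3 from 3487 and 2457 in group A to 14804 and 13324 in group B (2.24, adjusted p = 2.26e-28) and Fabp5 by 0.86 (adjusted p = 0.000444), both on the log2 scale of the authors' deposited table, and both also passed in limma. Fabp7 stayed at 9 reads or fewer in every library. Zic5, a zinc finger factor expressed beside Zic2 in neural tissue, fell by 0.90 in log2 units of the authors' deposited table (adjusted p = 0.00794, and 0.0961 in limma), with 764 and 937 normalized counts in group A and 512 and 401 in group B. Gbx1, the other Gbx gene, had 35.9, 49.4, 10.1 and 23.6 normalized counts (-1.34, adjusted p = 0.459, authors' deposited table). Sox2, the SOXB1 paralog of Sox1 and a pluripotency factor, had 29667, 35075, 23404 and 24346 (-0.44, adjusted p = 0.224, authors' deposited table). Gbx1 and Sox2 were named outside the rule given below. Their values lie on the same side of 0 as those of Gbx2 and Sox1, and neither passed. Other paralogs lay on the other side from their member, such as Vim (-0.25, with Nes at 0.25) and Sox4 (0.14, with Sox11 at -0.19). Sox12 (-0.72) was on the same side as Sox11.

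**Figure D4:**
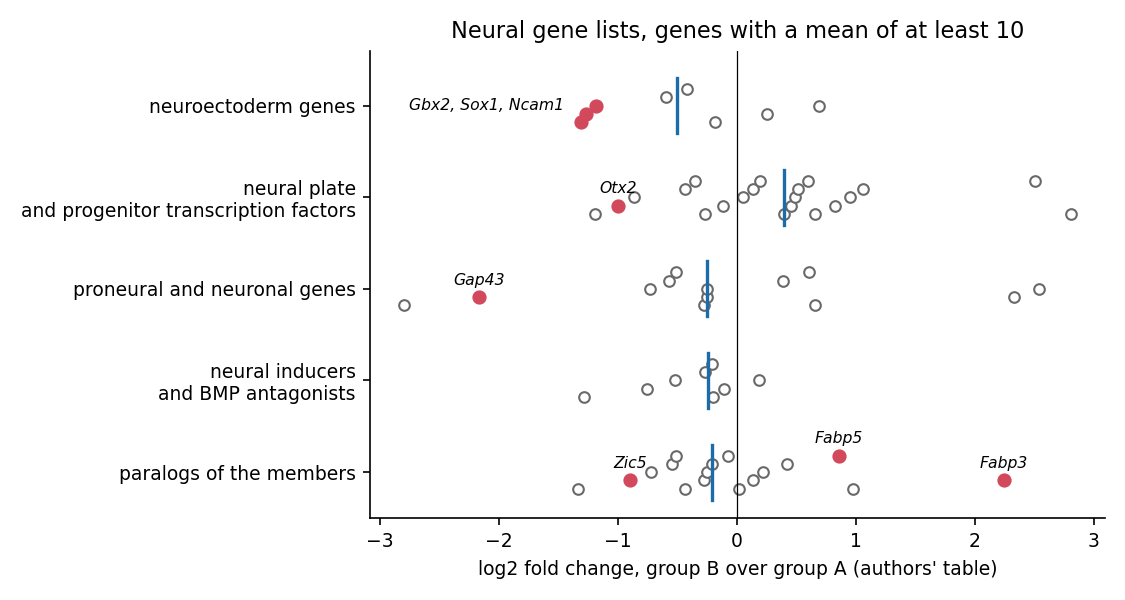
Log2 fold change of group B over group A in the authors' deposited table for genes averaging 10 or more normalized counts in the 9 neuroectoderm genes and in 4 fixed lists; heights within a row only separate the points. Filled points passed an adjusted p of 0.05 and are named, open points did not, and vertical lines are medians (-0.51, 0.40, -0.25, -0.24 and -0.21 from top to bottom).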

How the data were processed

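The authors deposited 1 table of a DESeq comparison. The submitters' processing notes name STAR, DESeq and mm10, with no version. How reads were counted, on which strand and with which annotation is not given in the sources used here. Stranded libraries were made, per the labels' protocols. Per the file headers, the deposited values are mean normalized counts (signal) per group, a fold change (ratio of B to A) with its log2, and p-values before and after adjustment. The authors' test was used as deposited, at an adjusted p of 0.05.

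Read counts per library were recovered as the whole numbers whose sum, each times a library's step, gives the group mean, within a tolerance of 1e-06. The second-best pair missed whole numbers by at least 20.5 times more than the pair taken, for each gene; in 1700 cases for A and 5 for B, none of them a neuroectoderm gene, that second pair was also inside the tolerance. They were tested with limma 3.58.1 in R 4.3.3 (mean-variance trend, log2(normalized count + 1), mean of at least 10, two-sided, Benjamini-Hochberg). Folds on this scale understate changes of low genes. The recovery of counts and limma were also run on simulated data. There all genes and libraries shared the same relative spread beyond counting error. Spread differed between genes here, so that run cannot tell how reliable the limma calls are in these data. Nothing states that the replicates are separate cultures beyond the word biological, so p-values measure the spread between these samples.

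Positions and exon lengths are from GENCODE M21 (mm10), which matched 46091 gene IDs. The 9 genes, the lists and the tests were chosen with earlier results of these data known. Named by rule were the 9 genes, Gsk3a and Gsk3b, up to 4 called genes per list or else the 2 with the highest mean, and the 3 nearest profiles of each called member.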

Additional observations from a re-analysis of the deposited data

How the results depend on the processing

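The authors' test called 1047 genes and 3 neuroectoderm genes. Limma called 411 genes, 397 with a pseudocount of 0.5, 495 with 5, 412 with no filter on low counts, 439 with a mean of at least 50, 448 with scaling to library totals and 570 with scaling to the upper quartile, and 1 neuroectoderm gene, Gbx2, in each of these. With 1 library left out, 0 to 1111 genes and 0 to 3 neuroectoderm genes were called, with 0 of both without A1 or A2; the lone sample of a group is then assumed to vary like the other pair. In these limma fits Sox1, Ncam1 and Gbx2 stayed below 0 in every setting. The sign turned in 5 cases, all with a library left out: Pax6 (range -1.57 to 0.13) and Sox11 (-1.18 to 0.43) turned without B1, Nes (-0.069 to 0.51) without B2, and Zic1 (-1.22 to 1.52) without B2 and, at -0.21, without A2. The cause was not tested. No paired analysis was possible because the table's columns carry no replicate numbers. For Fabp7 the number of reads limits the precision. For Pax6 both the few reads and the spread between 2 libraries limit it, and their shares were not separated. For Zic1 the exact Poisson intervals of the reads overlapped in group A (26.9 to 52.2 in A1, 13.0 to 32.1 in A2). In group B they did not (6.20 to 20.96 in B1, 51.9 to 85.1 in B2), so the B libraries differed by more than counting error. The shares of few reads and of spread were not separated for Zic1 either. The others had 181 reads or more in every library, and the shares were not separated there.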

Other observations

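The lists of glial and neural crest markers gave 1 call each in the authors' test, which called 3.46% of all 30237 genes tested. The lists are too short to set 1 call against that share. Of 8 glial and radial glial markers 6 had a count, and 1 was higher and 0 lower in the authors' test, with 2 higher and 1 lower at an unadjusted p below 0.05; limma also called 1 higher and 0 lower. The gene was Aldh1l1, a folate enzyme used as an astrocyte marker, with 1255 and 1220 normalized counts in group A and 2269 and 2454 in group B (0.93 on the log2 scale in the authors' deposited table, adjusted p = 0.000282). Of 10 neural crest markers 0 were higher and 1 lower, with 3 higher and 1 lower at an unadjusted p below 0.05, and limma called 0 higher and 1 lower. That gene was Foxd3, a forkhead factor of neural crest and of pluripotent cells, with 5847 and 5739 in group A and 2741 and 2469 in group B (-1.15, adjusted p = 3.61e-07, authors' deposited table).

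The neurofilament genes Nefl and Nefm, named after their values were seen, were highest in B1. Nefl had 663, 545, 5673 and 1366 normalized counts in A1, A2, B1 and B2 (log2 fold change 2.54, adjusted p = 0.745), and Nefm had 270, 202, 1931 and 443 (2.33, adjusted p = 0.825, authors' deposited table). Neither passed. Ina, another intermediate filament gene of the proneural and neuronal list, did not share this pattern. It had 695, 1021, 691 and 729 normalized counts in A1, A2, B1 and B2 (-0.27 on the same scale). B1 was also the library with the highest sum of endoderm markers, and a link to Nefl and Nefm was not tested.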
